A study of Medicago truncatula with 12 samples.

Results

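*MtSWEET3a* (MTR_3g090940), *MtSWEET3b* (MTR_3g090950) and *MtSWEET3c* (MTR_1g028460) are sugar transporter genes of the legume *Medicago truncatula*. They were chosen by their identifiers, as 3 of the 54073 genes listed for each of the 12 libraries. *MtSWEET3c* was above 0 in all 12, *MtSWEET3a* was listed at 0 at 0 h of salt, and *MtSWEET3b* at 2 h of drought and at 0 and 12 h of salt. Libraries of wild-type seedlings of the strain Jemalong A17, 4 weeks old and grown in days of 14 h light and 10 h darkness, were made at 0, 2, 6 and 12 h of cold, of drought and of salt stress. Drought meant transfer onto dry filter paper, salt meant sodium chloride in the nutrient solution, and cold meant a constant low temperature. Each of the 12 conditions had 1 library, so no difference below has a replicate check and no p-value is given. No library without stress was analysed at 2, 6 or 12 h, so time and stress cannot be told apart.

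SWEET proteins are membrane uniporters that let sugars pass down their concentration gradient, into or out of a cell or an organelle. In *Arabidopsis*, members of the family load the phloem, feed nectaries, pollen and seeds, and hold sugars in the vacuole. The *MtSWEET3* genes belong to clade I, whose *Arabidopsis* members *AtSWEET1* and *AtSWEET2* encode glucose transporters of the plasma membrane and of the vacuole. *MtSWEET3a* and *MtSWEET3b* have neighbouring identifiers on chromosome 3 and are a tandem pair, and *MtSWEET3c* lies on chromosome 1. Identifiers carry the chromosome, and no coordinates were used. The transcript lengths behind the values were 1241 bases for *MtSWEET3a*, 1068 bases for *MtSWEET3b* and 1235 bases for *MtSWEET3c*.

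The primers of the study for *MtSWEET3c* are shown. It is the only *MtSWEET3* gene that the study cloned for its yeast assay. It is also the member with a level well above the counting limit in every library. The qRT-PCR primers were designed for its transcript. The primers of the yeast assay hold the ends of its coding sequence in capitals, from the start codon ATG in the forward primer, and from CTA, the reverse complement of the stop codon TAG, in the reverse primer. Lower case in that pair marks the restriction site added for cloning.
MtSWEET3c qRT-PCR forward: tgtgccattgctcttgcatc
MtSWEET3c qRT-PCR reverse: acttggtcccgcaacgaata
MtSWEET3c yeast forward: actagtATGGCAGAAACCCTTCGT
MtSWEET3c yeast reverse: gtcgacCTAAGAAGTTGTCACATT

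Levels are in FPKM, the deposited unit, in which the fragments of a gene are divided by its transcript length and by the mapped fragments of the library. The whole numbers of fragments behind them were recovered from the values, and 12103751 to 25205150 fragments per library fell on genes. Intervals are 95% intervals for counting error only and compare libraries, and 3 fragments or fewer were taken as the limit of detection. The 0 h library of salt stood apart at low counts. It held 608 genes with a single fragment, against 1499 to 2862 in the other 11 libraries, and 217 genes at 0 there had at least 5 fragments in both other 0 h libraries. *MtSWEET3a* and *MtSWEET3b* were both at 0 in it, so their folds under salt rest on that library. The identifiers matched 0 of the 39590 genes of the RefSeq table, so the seedling tissue was not checked by marker genes.

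*MtSWEET3c* was the abundant member before stress, fell under drought and under salt, and did not fall under cold. At 0 h its level was 13.7 FPKM in the cold series, 12.5 FPKM in the drought series and 14.0 FPKM in the salt series. Those 3 libraries give the spread between unstressed seedlings, and their intervals overlapped. The log2 differences were -0.13 (95% interval -0.38 to 0.11) for drought over cold, 0.03 (-0.22 to 0.28) for salt over cold and -0.16 (-0.41 to 0.09) for drought over salt. In that state *MtSWEET3c* stood at place 7893 to 8500 by FPKM among the 54073 genes, and at place 5 or 6 of the 25 *MtSWEET* genes.

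Under drought *MtSWEET3c* had 12.5, 6.26, 0.760 and 2.45 FPKM at 0, 2, 6 and 12 h, from 273, 164, 17 and 42 fragments. The lowest level of all 12 libraries was therefore that of 6 h of drought (0.443 to 1.22 FPKM), and the level at 12 h (1.77 to 3.32 FPKM) lay above it without overlap. Under salt it had 14.0, 6.27, 3.47 and 1.57 FPKM at 0, 2, 6 and 12 h, from 257, 185, 98 and 29 fragments, with a lower level at each later time. Under cold it had 13.7, 14.6, 12.9 and 20.8 FPKM at 0, 2, 6 and 12 h, from 274, 418, 447 and 349 fragments. The 20.8 FPKM at 12 h of cold (18.7 to 23.1 FPKM) was the highest level of the 12. In whole seedlings, fewer cells of a type that expresses the gene and less of its RNA per cell cannot be told apart.

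**Figure D1:**
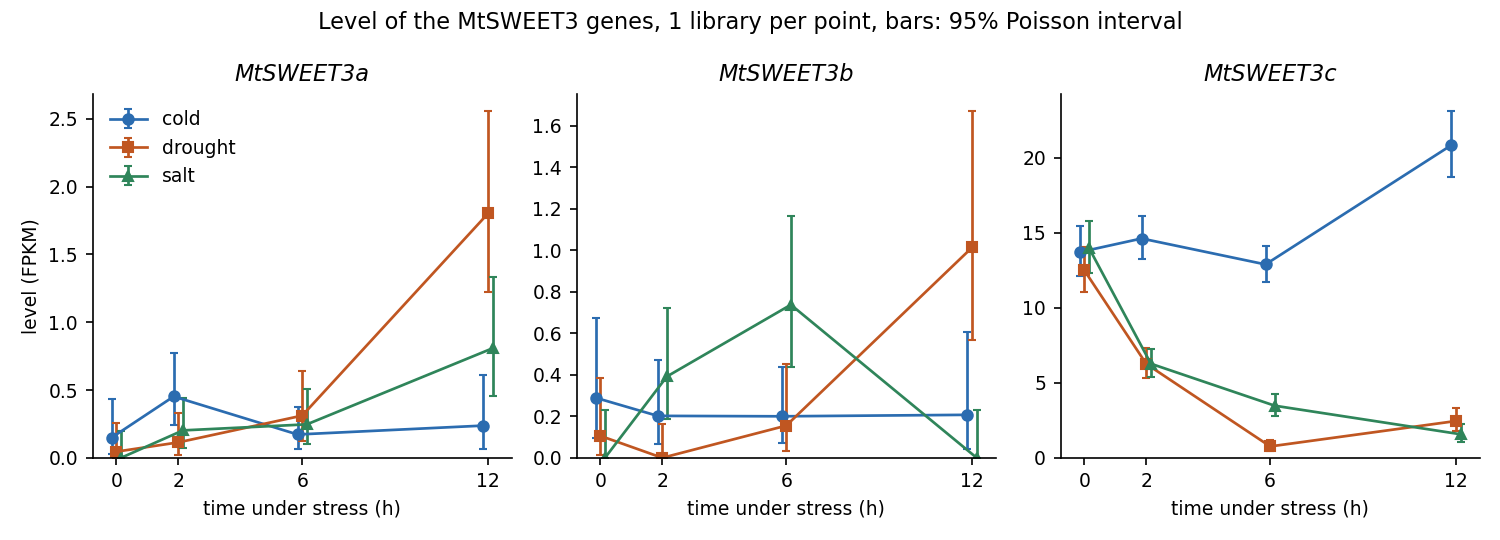
Level in FPKM of *MtSWEET3a*, *MtSWEET3b* and *MtSWEET3c* against time in h under cold, drought and salt, 1 library per point, with 95% Poisson intervals as bars and a separate vertical scale for each gene. *MtSWEET3c* sits at 12.5 to 14.0 FPKM at 0 h and at 0.760 to 6.27 FPKM in the 6 later drought and salt libraries, and *MtSWEET3a* and *MtSWEET3b* exceed 1 FPKM only at 12 h of drought.

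Ordered by level, the 12 libraries formed groups for *MtSWEET3c* by the gaps between neighbours in the order only. After 12 h of cold came 2 h of cold, 0 h of salt, 0 h of cold, 6 h of cold and 0 h of drought, 5 libraries in which no neighbour in the order differed beyond counting error. Next were 2 h of salt and 2 h of drought, also not distinguishable, with a log2 gap of 0.995 (0.72 to 1.27) below 0 h of drought. Then followed 6 h of salt, 12 h of drought and 12 h of salt, where neither neighbouring gap exceeded its interval. The outer libraries of that group did differ beyond counting error, with -1.14 (-1.80 to -0.53) for 12 h over 6 h of salt. Last was 6 h of drought, below 12 h of salt by 1.05 on the log2 scale (0.13 to 2.00).

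Against 0 h of the same stress, a gene was called at a fold of 2 or more in either direction. It also had to reach 1 FPKM in any of the 4 libraries compared. Shares of calls cover all genes tested. Places, percentiles and medians of folds, here and below, leave out genes at 0 in either library. *MtSWEET3c* was called lower at 6 h of drought, where 24.6% of all genes tested were called lower, with a log2 fold change of -4.04 (-4.84 to -3.33). This placed it 247th from the lowest of 23423 genes. It was also called lower at 12 h of drought, with -2.35 (-2.85 to -1.88), where 25.2% of all genes were called lower and it was 1460th from the lowest of 23292 genes. At 2 h of drought its -0.998 (-1.29 to -0.71) was a ratio of 0.501, just outside the threshold of 0.5, and 9.32% of all genes were called lower. A lower call at 6 or 12 h of drought was thus common among genes, and the place of *MtSWEET3c* among them was far lower at 6 h than at 12 h.

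Under salt *MtSWEET3c* was called lower at each time. The log2 fold change was -1.16 (-1.44 to -0.88) at 2 h, where 14.2% of all genes were called lower. It was -2.01 (-2.36 to -1.67) at 6 h, where 16% were called lower, and -3.16 (-3.76 to -2.60) at 12 h, where 26.9% were called lower. Its place from the lowest went deeper over time, at 2634 of 23388 genes at 2 h, 931 of 23378 at 6 h and 805 of 23173 at 12 h. At 6 and 12 h of salt, as at 6 h of drought, the gene lay outside the range between the 5th and the 95th percentile of all genes.

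Under cold *MtSWEET3c* was not called at any time. Its log2 fold change was 0.09 (-0.13 to 0.32) at 2 h, where 5.8% of all genes were called higher and 6.6% lower. It was -0.09 (-0.31 to 0.13) at 6 h, where 7.04% were called higher and 12.5% lower. Neither value was beyond counting error. At 12 h it was 0.60 (0.37 to 0.84), above counting error and at place 3024 from the highest of 22909 genes, and under the threshold. In that comparison 6.96% of all genes were called higher and 14.8% lower.

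**Figure D2:**
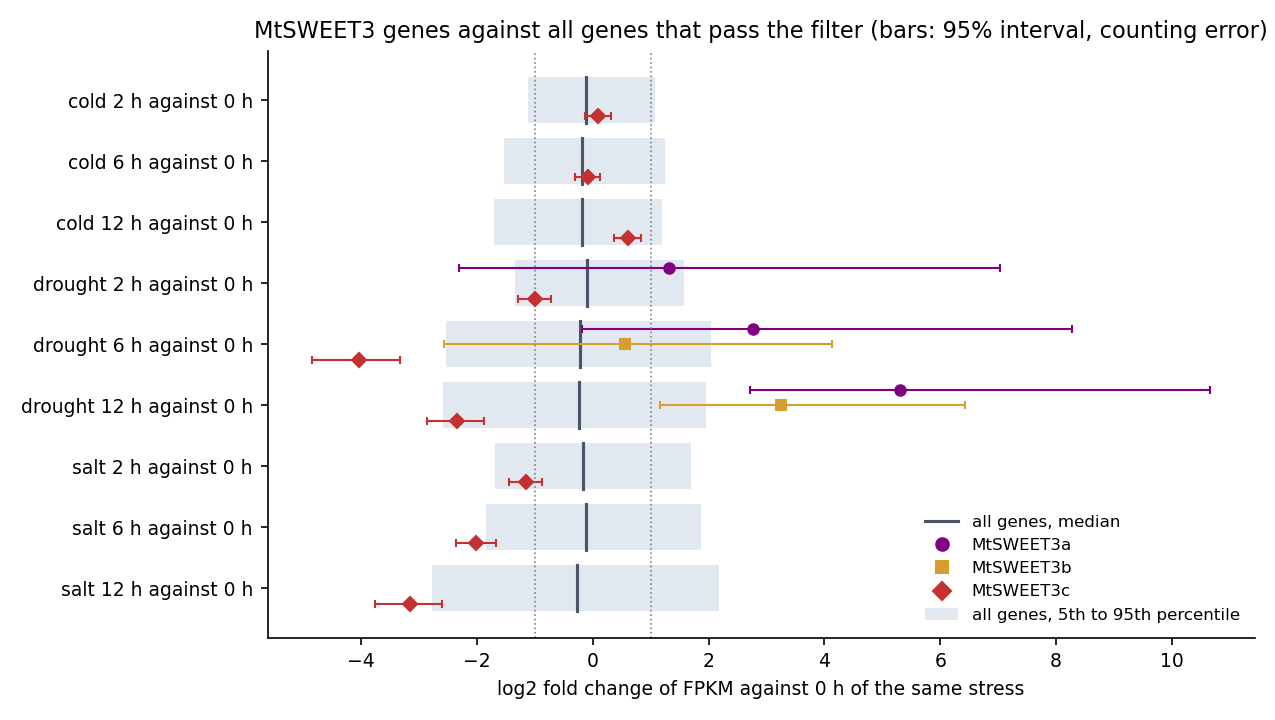
Log2 fold change of FPKM against 0 h of the same stress, with 95% intervals for counting error, over the range from the 5th to the 95th percentile (grey bar) and the median (dark line) of all genes that pass the filter, and dotted lines at a fold of 2 in either direction. Genes at 0 in either library or below the filter are not drawn; *MtSWEET3c* lies left of the grey bar at 6 h of drought (-4.04), 6 h of salt (-2.01) and 12 h of salt (-3.16).

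Compared with genes that started at a similar level, *MtSWEET3c* was near the low end under drought and salt, and not under cold. Of the 4486 genes with 10 to 20 FPKM at 0 h of drought, 1.09% had a lower ratio at 6 h, 6.87% at 2 h and 5.71% at 12 h. Of the 4565 such genes at 0 h of salt, 8.65% had a lower ratio at 2 h, 2.87% at 6 h and 2.78% at 12 h. Of the 4465 such genes at 0 h of cold, 71.5% had a lower ratio at 2 h, 56.5% at 6 h and 89.5% at 12 h. The range was chosen after the values of *MtSWEET3c* were seen.

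The steps between times separated the course of drought from that of salt. From 2 to 6 h of drought *MtSWEET3c* had a log2 fold change of -3.04 (-3.86 to -2.32) and was called lower, where 16.9% of all genes were, at place 286 from the lowest of 22603. From 6 to 12 h of drought it was called higher, with 1.69 (0.85 to 2.60), where 4.07% of all genes were, at place 343 from the highest of 21715. It passed the filter of 1 FPKM in that last step only through the later library.

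Salt had no such turn. The steps were -0.85 (-1.22 to -0.49) from 2 to 6 h, not called where 4.72% of all genes were called lower, and -1.14 (-1.80 to -0.53) from 6 to 12 h, called lower where 11.3% of all genes were. Under cold the step from 6 to 12 h was 0.69 (0.49 to 0.90), not called where 4.52% of all genes were called higher.

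Set against each other at the same time, drought and salt differed for *MtSWEET3c* at 6 h. At 2 h its level was 6.26 FPKM in drought and 6.27 FPKM in salt, a log2 difference of 0.00 (-0.31 to 0.31), so counting error leaves room for a change of that size in either direction. At 6 h it was 0.760 FPKM in drought and 3.47 FPKM in salt, a log2 difference of -2.19 (-3.03 to -1.44), called lower where 11.5% of all genes were. At 12 h it was 2.45 FPKM in drought and 1.57 FPKM in salt, 0.64 (-0.07 to 1.38), which was not called. The order of both stresses at 12 h was therefore not resolved at this depth.

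Against cold, *MtSWEET3c* was called lower at each of 2, 6 and 12 h under both other stresses. For drought over cold the log2 differences were -1.22, -4.08 and -3.09 at 2, 6 and 12 h, where 7.83%, 19.4% and 20.9% of all genes were called lower. For salt over cold they were -1.22, -1.89 and -3.73, where 9.42%, 10.3% and 19.6% were called lower. The places from the lowest were deepest at 6 h for drought, 182 of 22514 genes, and at 12 h for salt, 262 of 22409 genes.

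The tandem pair was scarce. *MtSWEET3a* had 96 fragments and *MtSWEET3b* 67 fragments over all 12 libraries, against 2553 for *MtSWEET3c*. At 0 h *MtSWEET3a* had at most 0.149 FPKM and *MtSWEET3b* at most 0.289 FPKM, from 0 to 5 fragments, and 3 fragments were worth up to 0.178 FPKM for *MtSWEET3a* and up to 0.207 FPKM for *MtSWEET3b*. Both genes were thus at or close to the limit of detection before stress. By FPKM they stood between places 18412 and 28659 (*MtSWEET3a*) and between 20706 and 27562 (*MtSWEET3b*) among all genes in the libraries where they were above 0.

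Under drought *MtSWEET3a* had 0.0455, 0.114, 0.311 and 1.80 FPKM at 0, 2, 6 and 12 h, from 1, 3, 7 and 31 fragments. *MtSWEET3b* had 0.106, 0, 0.155 and 1.01 FPKM, from 2, 0, 3 and 15 fragments. Only the 12 h library held more than 7 fragments of either gene, and both genes passed the filter of 1 FPKM through that library alone. *MtSWEET3a* was called higher at 12 h, where 12.8% of all genes were, with a log2 fold change of 5.31 (2.72 to 10.66), and *MtSWEET3b* with 3.26 (1.15 to 6.43). Of 23292 genes above 0 in both libraries they were 103rd and 426th from the highest, and genes that rose from 0 were not ranked. Against the 0 h library of cold, which held 3 and 5 fragments of these genes, the same 12 h library gave 3.59 for *MtSWEET3a* and 1.81 for *MtSWEET3b*.

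The other calls of the pair under drought rested on few fragments. *MtSWEET3a* was called higher at 2 h, where 10.1% of all genes were, with 1.32 (-2.32 to 7.04), and at 6 h, where 14% were, with 2.77 (-0.19 to 8.27). *MtSWEET3b* was called lower at 2 h with 0 fragments, against 2 at 0 h. None of these 3 folds was larger than its counting error. *MtSWEET3b* was not called at 6 h, with 0.55 (-2.58 to 4.13).

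From 6 to 12 h of drought all 3 genes were called higher, the only comparison between times in which they were called in 1 direction. The step was 2.53 (1.32 to 3.96) for *MtSWEET3a* and 2.71 (0.89 to 5.14) for *MtSWEET3b*, next to the 1.69 of *MtSWEET3c*. Their places from the highest of 21715 genes were 127, 102 and 343. All 3 passed the filter only through the 12 h library, so a count of 3 of 3 is not set against the share of all genes.

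Under salt *MtSWEET3a* had 0, 0.202, 0.247 and 0.808 FPKM at 0, 2, 6 and 12 h, from 0, 6, 7 and 15 fragments. *MtSWEET3b* had 0, 0.392, 0.737 and 0 FPKM, from 0, 10, 18 and 0 fragments. Between 6 and 12 h *MtSWEET3a* had a step of 1.71 (0.33 to 3.25). *MtSWEET3b* was 3.93-fold lower at 12 h with the 0 set to 3 fragments, and its log2 step had an upper limit of -1.52. How fragments matching both copies were divided is not known here, and whether the genes parted was not tested. Neither reached 1 FPKM under salt, so neither was called against 0 h, where 11.9%, 14.4% and 16.6% of all genes were called higher at 2, 6 and 12 h.

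The summed fragments of the pair at 2, 6 and 12 h of salt were 16, 25 and 15, against 0 at 0 h. With 3 fragments in place of 0 they were 3.32-, 5.42- and 4.97-fold higher. The lower limits of the log2 fold change for counting error were 1.26, 2.03 and 1.84. Under drought the pair had 3, 10 and 46 fragments at 2, 6 and 12 h, against 3 at 0 h, and its log2 fold change was 4.29 (2.65 to 6.62) at 12 h. The other 0 h libraries held 8 fragments of the pair in cold and 3 in drought, and the part of the 0 h salt library in the folds under salt was not tested.

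Under cold *MtSWEET3a* had 0.149, 0.452, 0.172 and 0.238 FPKM at 0, 2, 6 and 12 h, from 3, 13, 6 and 4 fragments. *MtSWEET3b* had 0.289, 0.202, 0.200 and 0.207 FPKM, from 5, 5, 6 and 3 fragments. Neither passed the filter, and no fold against 0 h exceeded its counting error for either gene. For *MtSWEET3a* at 2 h it was 1.60 (-0.27 to 4.05).

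At 12 h drought differed from the other stresses for the pair. *MtSWEET3a* was called higher in drought than in salt, with a log2 difference of 1.16 (0.22 to 2.15), where 10.3% of all genes were. *MtSWEET3b*, with 15 fragments in drought and 0 in salt, was 5.40-fold higher in drought with the 0 set to 3 fragments. Its log2 difference had a lower limit of 1.95 for counting error. Drought over cold was 2.92 (1.42 to 4.89) for *MtSWEET3a* and 2.29 (0.47 to 4.72) for *MtSWEET3b*, both called higher where 16.8% of all genes were. These calls again rest on the 12 h drought library, through which both genes passed the filter.

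The balance between *MtSWEET3c* and the tandem pair moved under drought and salt, and stayed on the side of *MtSWEET3c* under cold. The ratio of its FPKM to the summed FPKM of the pair was 82.5, 54.9, 1.63 and 0.871 at 0, 2, 6 and 12 h of drought. Under salt the pair was listed at 0 at 0 h, and the ratio was 10.6, 3.53 and 1.94 at 2, 6 and 12 h. Under cold it was 31.3, 22.3, 34.6 and 46.8. The only library in which the pair had more FPKM than *MtSWEET3c* was that of 12 h of drought.

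The same shift is seen in shares of fragments. Under drought *MtSWEET3c* had 98.9%, 98.2%, 63.0% and 47.7% of the fragments of the 3 genes at 0, 2, 6 and 12 h, and the interval at 12 h (37.0 to 58.6%) lay below that at 0 h (96.9 to 99.8%). Under salt it had 100%, 92.0%, 79.7% and 65.9%, with 50.1 to 79.5% at 12 h and 98.6 to 100% at 0 h. The 0 h library of salt stood apart at low counts, and that of cold gave 97.2% (94.5 to 98.8%). Under cold *MtSWEET3c* had 97.2%, 95.9%, 97.4% and 98.0%, and all 4 intervals overlapped. At 12 h of drought and of salt the libraries held both fewer fragments of *MtSWEET3c* and more of the pair than at 0 h.

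Within the pair, the share of *MtSWEET3b* could be told apart between few libraries. It had 0 of the pair's 15 fragments at 12 h of salt, which allows up to 21.8%, against 72.0% at 6 h of salt (18 of 25, 50.6 to 87.9%). At 12 h of drought it had 32.6% (15 of 46, 19.5 to 48.0%). How fragments that match both copies were divided by the authors is not given in the sources used here, so the split between *MtSWEET3a* and *MtSWEET3b* is uncertain, and the sum is less so.

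**Figure D3:**
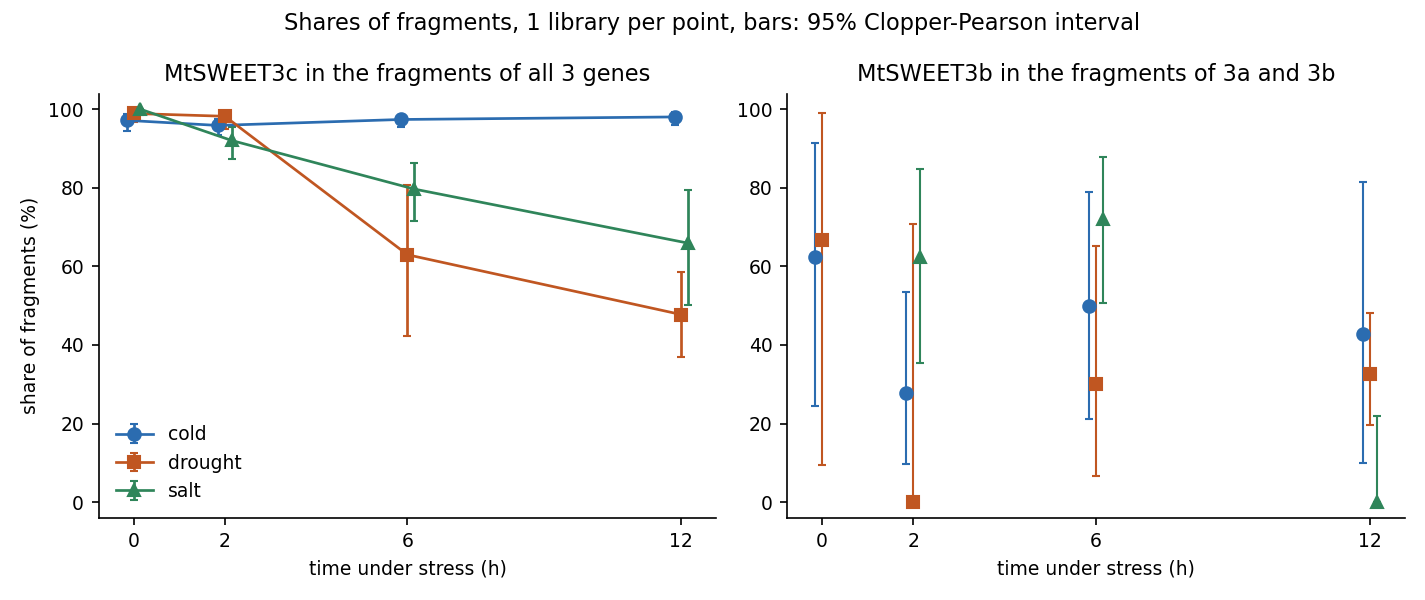
Left, share in % of *MtSWEET3c* in the fragments of all 3 *MtSWEET3* genes, and right, share in % of *MtSWEET3b* in the fragments of the tandem pair, against time in h, 1 library per point, with 95% Clopper-Pearson intervals (the pair had no fragment at 0 h of salt and is not drawn there). The share of *MtSWEET3c* is 47.7% at 12 h of drought and 65.9% at 12 h of salt, below the 95.9 to 98.0% of the cold libraries.

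The genes of the pair exceeded 1 FPKM only at 12 h of drought. Of the identifiers next to them, MTR_3g090955 was likewise near 0 at 0 h. It was above 1 FPKM at 6 and 12 h of drought and salt. This gene, which follows *MtSWEET3b* and has no annotation in the sources used here, had 0.0630, 0.263, 1.78 and 2.41 FPKM at 0, 2, 6 and 12 h of drought. It had 0, 0.793, 1.17 and 2.09 FPKM at those times of salt, and at most 0.0963 FPKM under cold. Its log2 fold change was 4.82 (2.23 to 10.18) at 6 h and 5.26 (2.67 to 10.61) at 12 h of drought, next to 1.70 (-0.25 to 4.20) at 6 h and 4.29 (2.65 to 6.62) at 12 h for the summed pair, and these intervals overlap at both times. Whether it shares fragments with *MtSWEET3b* was not tested. The 2 identifiers before *MtSWEET3a* were listed at 0 in all 12 libraries, and MTR_3g090960 was at 4.15 to 7.15 FPKM. Next to *MtSWEET3c*, MTR_1g028440 was at 20.1 to 39.7 FPKM, with 20.1 FPKM at 6 h of drought, and MTR_1g028470 at 0.0818 to 0.961 FPKM.

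Within clade I the share of *MtSWEET3c* was smaller in every later drought and salt library than at 0 h. At 0 h it made up 34.1 to 35.7% of the summed FPKM of the 7 clade I genes. Its share was 23.9%, 3.15% and 10.3% at 2, 6 and 12 h of drought, and 16.8%, 9.37% and 2.48% at 2, 6 and 12 h of salt. Under cold the share was 20.7%, 15.1% and 41.4%, and at 2 and 6 h of cold the level of *MtSWEET3c* itself did not differ from 0 h beyond counting error, while *MtSWEET2b* was called higher. *MtSWEET2b* had 17.9, 49.2, 65.7 and 25.3 FPKM at 0, 2, 6 and 12 h of cold, and 17.7, 22.6, 26.9 and 43.7 FPKM at those times of salt.

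*MtSWEET1a* had 1.20, 2.28, 2.79 and 15.6 FPKM at 0, 2, 6 and 12 h of salt, and 1.54, 1.37, 1.71 and 0.135 FPKM at those times of drought. *MtSWEET2a*, at 6.28, 5.20, 2.90 and 1.64 FPKM under salt, was the other clade I gene called lower at 6 and 12 h of salt. *MtSWEET1b* had at most 0.507 FPKM in any library. Among the 25 *MtSWEET* genes *MtSWEET3c* was at place 11 at 6 h of drought and at place 9 at 12 h of drought and of salt.

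Of the other 22 *MtSWEET* genes, 9 passed the filter under cold and 10 each under drought and salt. At 12 h of drought 3 of the 10 were called higher (*MtSWEET7*, *MtSWEET9b* and *MtSWEET13*) and 3 lower (*MtSWEET1a*, *MtSWEET15c* and *MtSWEET16*), where 12.8% of all genes were called higher and 25.2% lower, with a median log2 fold change of -0.33 next to -0.23 over all genes tested. At 6 h of drought, where *MtSWEET3c* was lowest, 3 were called higher (*MtSWEET7*, *MtSWEET9b* and *MtSWEET13*) and 2 lower (*MtSWEET15c* and *MtSWEET16*), where 14% of all genes were called higher and 24.6% lower. At 12 h of salt 4 were called higher (*MtSWEET1a*, *MtSWEET2b*, *MtSWEET7* and *MtSWEET9b*) and 3 lower (*MtSWEET2a*, *MtSWEET15c* and *MtSWEET16*), where 16.6% of all genes were called higher and 26.9% lower. The counts of lower calls are near those shares. Among the higher calls, *MtSWEET7* and *MtSWEET9b* passed the filter only through later libraries. At 0 h they had 0.220 and 0.341 FPKM in the drought series, and 0 and 0.0811 FPKM in the salt series. The call of *MtSWEET7* at 6 h of drought did not exceed counting error, with 1.84 (-0.08 to 4.32). Nothing is read from the lower or the higher calls about the family.

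Genes that followed *MtSWEET3c* were ranked by Pearson's r of log2(FPKM + 1) over the 12 libraries, among 14543 other genes with a mean of at least 5 FPKM. The value is a description, since the libraries share 3 starting points and stress. The 5 highest were MTR_3g086550 (0.989), MTR_3g115870 (0.988), MTR_1g073700 (0.987), MTR_8g098435 (0.986) and MTR_4g112680 (0.985), none with an annotation in the sources used here. Such profiles were frequent, with r above 0.9 for 813 genes (5.59%) and below -0.9 for 499 genes (3.43%), and the median r was 0.16.

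The 5 genes were chosen for a shape like that of *MtSWEET3c* in these same libraries, so their shared shape follows from the choice and is a description only. Each was higher at 12 h than at 6 h of drought, lower at 12 h than at 6 h of salt, and higher at 12 h than at 0 h of cold. Their log2 fold changes were -2.61 to -0.81 at 6 h of drought and -2.17 to -0.79 at 12 h of salt, all smaller in size than the -4.04 and -3.16 of *MtSWEET3c*. The nearest in size, MTR_1g073700, had 23.2, 17.7, 3.80 and 5.51 FPKM at 0, 2, 6 and 12 h of drought, and 24.7, 15.6, 9.57 and 5.47 FPKM at those times of salt.

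The 3 most opposite genes were MTR_1g088470 (-0.982), MTR_8g069450 (-0.977) and MTR_7g090035 (-0.974). MTR_1g088470 had 2.02, 3.75, 24.6 and 15.1 FPKM at 0, 2, 6 and 12 h of drought, with its highest level where *MtSWEET3c* had its lowest. Within the *MtSWEET* family the highest r with *MtSWEET3c* was that of *MtSWEET15d* (0.67, at a mean of 0.369 FPKM) and the lowest that of *MtSWEET9b* (-0.91). *MtSWEET3a* had -0.53 and *MtSWEET3b* -0.24, from values near the limit of detection.

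*ACTIN*, which encodes a cytoskeletal protein and served as the qRT-PCR reference, also went down under drought and salt. It had 275, 253, 174 and 168 FPKM at 0, 2, 6 and 12 h of drought and 262, 228, 202 and 185 FPKM at those times of salt, against 255 to 267 FPKM under cold. Its r with *MtSWEET3c* was 0.93, at place 373 of the 14543 genes. Divided by *ACTIN*, *MtSWEET3c* had log2 fold changes of -3.38 and -1.63 at 6 and 12 h of drought and of -2.65 at 12 h of salt. The falls of *MtSWEET3c* were therefore smaller and kept their direction on that scale. Both values of this ratio are FPKM from the same libraries. It is not a qRT-PCR measurement and does not show what qRT-PCR would give.

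**Figure D4:**
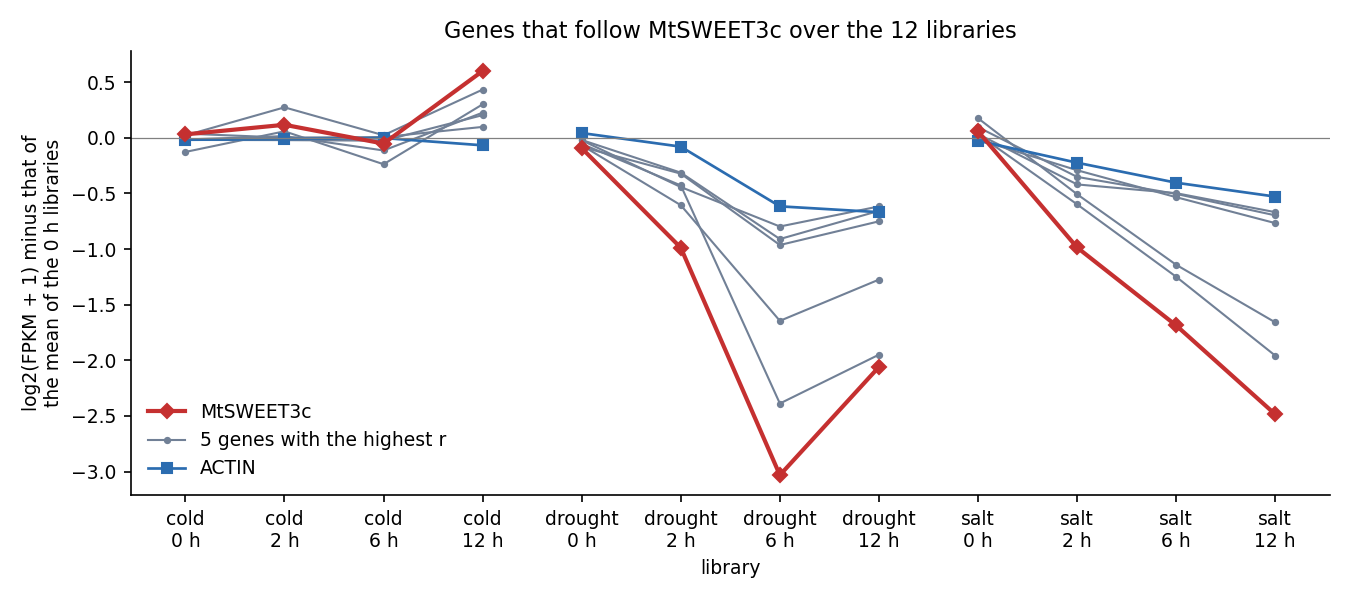
Log2(FPKM + 1) minus that of the mean of the 0 h libraries, for *MtSWEET3c*, the 5 genes with the highest r with it and *ACTIN*, in the 12 libraries in order of stress and time. All but *ACTIN* go up between 6 and 12 h of drought and at 12 h of cold, and *MtSWEET3c* has the deepest fall, to 0.760 FPKM at 6 h of drought.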

How the data were processed

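Seedling RNA was sequenced by the authors, 1 library for each of 3 stresses and 4 times. FPKM values, 1 per gene and library, were deposited by the authors. Whether the labelled tag libraries or full-length fragments were sequenced is not settled by the sources used here. The labels describe 3'-tag libraries, while the values divide by transcript length. At a similar FPKM, that division alone gives a longer transcript more fragments. The larger median fragment numbers of longer transcripts therefore cannot decide between them. Processing notes of the submitters name HTSeq and DESeq, and the methods of the study name Tophat, StringTie and the Mt4.0v1 annotation. FPKM is scaled to each library's total, so a level is relative to all RNA.

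Whole fragment numbers were solved for from the FPKM values alone, by a depth common to a library and a transcript length common to a gene (tolerance 0.01 fragments). This succeeded for 37273 of the 37274 genes above 0 (99.997%). Fragments on genes were 12103751 to 25205150 per library. With 1 library per condition no count model was fitted. Folds were FPKM ratios without pseudocount. Calls needed a fold of 2 or 0.5 and an FPKM of at least 1 in 1 of the 4 libraries of the stress (in 1 of the 2 libraries for steps and contrasts); a gene at 0 at 0 h was called at a later FPKM of at least 1. Folds and shares have 95% Clopper-Pearson intervals and levels have 95% Poisson intervals, all for counting error only. For a fold with a library at 0, that 0 was set to 3 fragments, and its limit for counting error kept the 0. The recovery was tested on simulated data.

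The genes named are the 3 *MtSWEET3* genes, the other *MtSWEET* genes (counts, and values for clade I), *ACTIN*, the 5 most like and 3 most opposite genes, the highest and lowest *MtSWEET* gene by r, and the identifiers beside the members. Members and lists were chosen with earlier results of these data known. Alternatives were the pseudocount, filter, threshold, control library, scaling, measure of likeness and leaving out a library. Scripts ran in Python 3.11.15 with scipy 1.17.1, pandas 2.3.3 and numpy 2.4.6, and figures were drawn with matplotlib 3.10.9.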

Additional observations from a re-analysis of the deposited data

Results flagged for a closer look

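At 12 h the log2 fold change of *MtSWEET3c* was below 0 under drought and under salt, where it was called lower, and above 0 under cold, where it was not called. Its log2 fold change against 0 h was lower under drought than under cold by a difference of -2.95, with -2.35 under drought and 0.60 under cold. Under salt the difference from cold was -3.76, with -3.16 under salt and 0.60 under cold. With 1 library per condition neither difference was tested.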

How the results depend on the processing

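No paired analysis was possible because each condition had 1 library and the labels give no replicate numbers shared between groups. Over the 3 genes and 3 times, 7 calls were made under drought, 3 under salt and 0 under cold. Per comparison, 9.32 to 25.2% of all genes were called lower and 10.1 to 14% higher under drought, 14.2 to 26.9% and 11.9 to 16.6% under salt, and 6.6 to 14.8% and 5.8 to 7.04% under cold. Of the drought calls 5 were of *MtSWEET3a* and *MtSWEET3b*, which passed the filter through the 12 h library alone, so the count is a description. It was 3 with a pseudocount of 1, 2 with an FPKM of at least 2, and 4 where the interval of the fold had to lie on 1 side of no change. The salt count was 8 without a filter and 5 with an FPKM of at least 0.5. The cold count was 1 without a filter (*MtSWEET3a* at 2 h) and 1 with a threshold of 1.5 (*MtSWEET3c* at 12 h). For *MtSWEET3c* the pseudocount of 1 gave a log2 fold change of -2.94 at 6 h of drought and -2.54 at 12 h of salt, and division by *ACTIN* gave -1.63 at 12 h of drought and -1.63 at 6 h of salt. With the 0 h library of cold as control, *MtSWEET3a* at 2 h of drought turned to -0.39 and *MtSWEET3b* at 6 h of drought, not called, to -0.90, and at 12 h of drought *MtSWEET3a* had 3.59 and *MtSWEET3b* 1.81. With the other controls the uncalled folds of *MtSWEET3b* under cold also changed sign (0.60 to 0.97). The 2 h calls of *MtSWEET3c* depended on the control: it was called lower at 2 h of drought against either other 0 h library, and not called at 2 h of salt against the 0 h library of drought, after division by *ACTIN* or with a threshold of 3. Of the 5 genes most like *MtSWEET3c*, 2 were kept among the 5 by Spearman's rank correlation, 3 with a pseudocount of 0.1 and 2 with median-ratio scaling, and leaving out a library kept 2 to 5, with 2 without 12 h of drought and 3 without 6 h of drought or 12 h of cold. The r of *ACTIN* was 0.75 by Spearman's measure. The interval and *ACTIN* alternatives were chosen after seeing the data. At 12 h of drought a pseudocount of 1 gave 1.42 for *MtSWEET3a* and 0.86 for *MtSWEET3b*. Under the other alternatives counts stayed within 1.5 times and values within their counting error. Median log2 folds of all genes against 0 h were -0.26 to -0.09, so the falls of *MtSWEET3c* are that much smaller relative to the typical gene. Depth limits statements on *MtSWEET3a* and *MtSWEET3b*, with 15 fragments or fewer in all libraries but 2.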
